A study of Mus musculus with 28 samples.

Results

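The nuclear genes of oxidative phosphorylation (OXPHOS) were followed in mouse retinal microglia before and during endotoxin-induced uveitis (EIU), the ocular inflammation raised by an intravitreal injection of lipopolysaccharide (LPS). Members were taken by symbol alone, as every gene whose name began with Nduf, Uqcr, Atp5 or Cox4 to Cox8 or was Sdha, Sdhb, Sdhc or Sdhd. This gave 92 of the 40021 genes in the expression table, after 8 symbols ending in -ps, which mark pseudogenes, had been left out. By symbol, 36 belong to complex I, 4 to complex II, 8 to complex III, 20 to complex IV and 16 to complex V, and 8 are the complex I assembly factors Ndufaf1 to Ndufaf8.

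Oxidative phosphorylation is the final stage of respiration in the inner mitochondrial membrane. Complexes I and II pass electrons from NADH and succinate to ubiquinone, complex III passes them on to cytochrome c, complex IV reduces oxygen, and complex V, the ATP synthase, uses the resulting proton gradient to make ATP. Most subunits are encoded in the nucleus, and a small remainder of hydrophobic core subunits is encoded by mitochondrial DNA. In macrophages and microglia the balance between respiration and glycolysis is known to shift after Toll-like receptor stimulation.

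Each sample was the live tdTomato-high, DRAQ7-negative fraction of 1 retina, and mRNA was sequenced from 28 retinas. All animals were young adult male heterozygotes of the Cx3cr1CreER:R26-tdTomato (C57BL/6) line, in which tamoxifen-activated Cre recombinase, driven by the promoter of the fractalkine receptor gene Cx3cr1, switches on tdTomato. Tamoxifen was given to every group, the naïve one included, and 10 retinas were naïve, while LPS preceded collection by 4 h for 6 retinas, by 18 h for 5 and by 2 weeks for 7. Of the 2 experiments the first gave 6 naïve, 3 retinas of the 4 h group, 4 of the 18 h group and 4 of the 2-week group, and the second gave 4, 3, 1 and 3 in the same order. Both the Cre and the reporter were heterozygous, the tag marks any cell that expressed Cx3cr1 during tamoxifen, and the naïve group had no injection, so the injection itself and LPS cannot be told apart. The labels do not say which eyes shared a mouse, so the p-values measure only the spread between retinas.

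All 10 microglial markers, among them Cx3cr1, P2ry12 and Tmem119, were present in every group. Expression is given as RPKM, a read count divided by transcript length and by library size. The 10 markers summed to between 6684 and 14865 RPKM without LPS, between 2319 and 8735 RPKM at 4 h, between 4152 and 8579 RPKM at 18 h and between 7981 and 15682 RPKM at 2 weeks, and 4 of the 10 were called lower at 4 h and 6 at 18 h. The part of this decline in the differences below was not tested. Rod photoreceptor transcripts were present throughout, with sums of 1958 to 6949 RPKM before LPS, 1252 to 5645 RPKM in the 4 h group, 1439 to 2788 RPKM in the 18 h group and 2303 to 6102 RPKM in the last group. Of 10 rod markers 1 was called lower at 18 h. Erythrocyte markers summed to at most 43.5 RPKM before LPS and to between 13.9 and 735 RPKM at 4 h, where all 4 tested were on the higher side (median log2 difference 1.52, none called and 2 at an unadjusted p under 0.05 by limma). Müller glia markers summed to between 55.3 and 178 RPKM before LPS and between 48.2 and 81.4 RPKM at 18 h, where 1 of 6 was called lower. Of 8 neutrophil markers 7 were in the table, with a sum of at most 0.342 RPKM outside 18 h and at most 15.7 RPKM at 18 h. Lymphocyte markers summed to at most 0.907 RPKM outside 18 h and to between 6.59 and 86.4 RPKM at 18 h, and monocyte markers reached 49.5 RPKM at 18 h and 26.6 RPKM elsewhere. The neutrophil markers Mpo and Ngp and the B-cell markers Cd79a and Ms4a1 stayed under 0.1 RPKM in every 18 h retina. By contrast, 3 neutrophil, 5 monocyte and 2 lymphocyte markers reached 1 RPKM in 1 or more retinas at 18 h. The 1 lymphocyte marker tested was called higher at 18 h (log2 difference 4.36). The 1 monocyte marker tested had a log2 difference of 1.88 (not called, unadjusted p under 0.05 by limma). Libraries held 7510000 to 19700000 alignments and 6552 to 11825 genes with at least 1 RPKM. The part of these other cells' transcripts was likewise not tested, and in sorted bulk samples fewer cells of a type and less RNA per cell cannot be told apart.

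The module was abundant in resting microglia. Of the 92 genes 89 passed the filter on low values, which kept 13164 genes that reached 1 RPKM in 5 or more retinas. The 3 that did not were Ndufa4l2, a paralogue of Ndufa4 with at most 2.00 RPKM in any retina, and the isoforms Cox7b2 and Cox8c, the first at most 0.178 RPKM and the second listed at 0 in every retina. Over the 89 genes the naïve medians ran from 0.106 to 487 RPKM, and 45 of them stood at 100 RPKM or more. RPKM is scaled by transcript length, and levels are set side by side between genes here only as a rough order. The part of transcript length, amplification and read assignment in this order was not tested. Ndufa1, an accessory subunit needed for complex I assembly, came first at 487 RPKM, followed by Cox8a at 486 and Ndufa4, a subunit now placed in complex IV, at 484. Cox4i1, the ubiquitous form of the regulatory subunit 4, had 405, Ndufa2 393, Uqcrb 392 and Cox6a1 389. Between neighbours in this order the naïve retinas overlapped widely, for example 105 to 802 RPKM for Ndufa4 and 134 to 585 RPKM for Cox4i1.

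By complex, the median of the naïve levels was 141 RPKM for complex I, 80.3 for complex II, 142 for complex III, 120 for complex IV, 78.1 for complex V and 26.7 for the assembly factors, none of which reached 100 RPKM. Within complex I the accessory subunit Ndufa1 stood above the 7 core subunits that carry the electron path. Ndufs1, the largest iron-sulphur subunit, had a naïve median of 6.82 RPKM, Ndufv1, which binds NADH, had 13.7 RPKM, and Ndufv2, its iron-sulphur partner, had 165 RPKM. The tissue-specific isoforms of complex IV were low beside their ubiquitous partners, with naïve medians of 7.76 RPKM for Cox4i2, 8.86 for Cox7a1, 10.0 for Cox6a2 and 0.106 for Cox8b.

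Promoter sequence is shown for 4 members, because a nuclear respiratory factor 1 (NRF1) element is a known feature of many OXPHOS promoters. Atp5g1 and Ndufaf7 are 2 of the 4 genes called in a comparison below, and Cox6a1 and Atp5h hold the NRF1 motif. RefSeq promoter windows for GRCm38.p6 were matched for 74 of the 92 genes, and in the stretch of 250 bases before the start the NRF1 motif was found on either strand in 14 of the 74 (18.9%), against 887 of 9039 tested genes (9.81%) and 4.23% of all 27025 genes with a window. The ETS letters CCGGAAG were in 14 (18.9%, against 16.4% of tested and 7.83% of all genes) and the GC box GGGCGGG was in 23 (31.1%, against 46.1% and 25.7%). The GC box and the other motifs were searched separately and may overlap. These motifs were chosen with the expression results known, and a match of letters is a description, not evidence of binding. The stretches below run 5′ to 3′ on the coding strand, leave out bases that an annotated exon covers, and carry motif matches in capitals. In Cox6a1, at chr5:115348982-115349129 on the minus strand, an NRF1 match lies 162 to 153 bases before the start, with letters that read the same on both strands. A further NRF1 match lies 117 to 108 bases before the start on the opposite strand, and a GC box lies at 45 to 39 on the opposite strand. In Atp5h, at chr11:115419963-115420127 on the minus strand, an NRF1 match lies at 141 to 132 on the opposite strand. The windows of Cox6a1 and Atp5h also hold the ETS letters, but not wholly within the stretches shown. The window of Sdhd holds the NRF1 and ETS motifs too, and Ndufs7 is also called below. Neither had any of the 3 motifs in its stretch outside exons, and these stretches are not shown. Atp5g1, at chr11:96075671-96075881 on the minus strand, and Ndufaf7, at chr17:78937067-78937134 on the plus strand, held none of the 3 in the stretch shown.
Cox6a1: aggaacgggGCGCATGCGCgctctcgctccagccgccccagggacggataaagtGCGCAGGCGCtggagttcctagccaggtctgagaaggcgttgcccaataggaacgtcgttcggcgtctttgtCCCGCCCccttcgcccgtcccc
Atp5h: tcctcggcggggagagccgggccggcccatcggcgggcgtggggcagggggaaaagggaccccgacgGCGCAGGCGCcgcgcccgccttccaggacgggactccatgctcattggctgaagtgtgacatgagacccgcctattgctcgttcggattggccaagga
Atp5g1: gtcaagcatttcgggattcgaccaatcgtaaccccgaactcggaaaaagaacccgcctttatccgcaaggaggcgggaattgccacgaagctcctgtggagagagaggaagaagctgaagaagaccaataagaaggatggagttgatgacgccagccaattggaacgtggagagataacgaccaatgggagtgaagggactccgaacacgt
Ndufaf7: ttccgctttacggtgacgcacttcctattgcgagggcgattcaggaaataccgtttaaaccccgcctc

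The first comparison asked how the module stood at 4 h, the early phase of EIU. Ndufaf7 and Ndufs7 fell, no member rose, and 87 of the 89 did not pass the test. Of all genes 8.7% were called, 4.82% lower and 3.87% higher, so 2 of 89 lower calls lie below the background share. The test was limma on log2(RPKM + 1) over all 28 retinas, adjusted over all 13164 genes with a threshold of 0.05 for the adjusted p, and log2 differences on this scale understate changes of low genes. At an unadjusted p under 0.05 there were 14 members (15.7%), against 20.5% of all genes.

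Ndufaf7 encodes an arginine methyltransferase needed for complex I assembly, and lies at chr17:78937136-78948052 on the plus strand (GRCm38). Its lowest, median and highest levels were 9.85, 35.0 and 45.4 RPKM in naïve retinas and 3.89, 14.7 and 26.5 RPKM at 4 h. The groups overlapped, since the fourth naïve retina, the lowest of its group, and the first, at 23.8 RPKM, lay below the highest 4 h retina. The log2 difference was -1.23 (SE 0.34, limma adjusted p = 0.016), and the call held in 27 of the 28 fits made without 1 of the retinas, being lost without the first 4 h retina (-0.94, adjusted p = 0.083). Ndufaf7 was lower at 4 h in both experiments (log2 differences of -1.45, adjusted p = 0.217, and -1.05, adjusted p = 0.026), with means of 31.5 ± 13.4 (SD, n = 6) and 11.3 ± 6.39 (n = 3) RPKM in experiment 1 and of 33.9 ± 4.43 (n = 4) and 17.0 ± 8.55 (n = 3) in experiment 2.

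Ndufs7 encodes the core subunit that holds the last iron-sulphur cluster before ubiquinone, and lies at chr10:80249121-80256794 on the plus strand. It had 55.6, 117 and 192 RPKM in naïve retinas and 32.6, 69.6 and 86.2 RPKM at 4 h as lowest, median and highest. The 4 h retinas sat in the lower range of the naïve ones. The log2 difference was -0.86 (SE 0.26, limma adjusted p = 0.037). This call rested on single retinas: it was kept in 19 of 28 fits and lost without naïve retina 3, 5, 6, 8 or 9 or without 4 h retina 1, 2, 3 or 5, with log2 differences of -0.97 to -0.67 and an adjusted p of up to 0.144. It was also lost within each experiment, at -1.12 (adjusted p = 0.213) in the first and -0.57 (adjusted p = 0.081) in the second.

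The rest of complex I leaned to the same side without passing the test. Of its 36 genes 32 had a negative log2 difference at 4 h, with a median of -0.61, against -0.11 over all genes. The 29 accessory subunits had a median of -0.69 and the 7 core subunits -0.23. Ndufb3, an accessory subunit of the membrane arm, had 54.5, 222 and 433 RPKM in naïve retinas and 52.8, 109 and 192 RPKM at 4 h (log2 difference -1.005, SE 0.37, limma adjusted p = 0.091). Ndufc1, the lowest of complex I, stood at -1.17 (SE 0.59, limma adjusted p = 0.260). The core subunits Ndufs1 (0.06, SE 0.54) and Ndufv1 (0.67, SE 0.55) were on the positive side, with limma adjusted p of 0.970 and 0.541, as was the accessory subunit Ndufa10 at 0.78 (SE 0.62, limma adjusted p = 0.529).

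In the other complexes no gene passed the test at 4 h, and the medians were -0.35 for complex II, -0.38 for III, -0.28 for IV, -0.29 for V and -0.24 for the assembly factors. Sdha and Sdhb, which form the succinate-oxidising head of complex II, had log2 differences of -0.58 (SE 0.37) and -0.55 (SE 0.32), with limma adjusted p of 0.398 and 0.356. The Rieske iron-sulphur subunit of complex III, Uqcrfs1, had 0.67 (SE 0.68, limma adjusted p = 0.635), and the small subunit Uqcr11 had -0.81 (SE 0.40, limma adjusted p = 0.247). In complex IV the muscle-type isoform Cox6a2 was the lowest, at -2.03 (SE 0.69, limma adjusted p = 0.062), and Cox8b, also a muscle-type isoform, was the highest, at 0.93 (SE 0.58, limma adjusted p = 0.390). In complex V the catalytic subunits Atp5a1 and Atp5b had 0.29 (SE 0.38) and 0.71 (SE 0.58), and the coupling factor subunit Atp5j had -0.96 (SE 0.47), with limma adjusted p of 0.728, 0.539 and 0.244. No member separated the 4 h retinas from the naïve ones without overlap, whereas 1.42% of all genes lay wholly below and 1.65% wholly above.

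Over the 89 genes, 70 had a negative log2 difference at 4 h and the median was -0.40. It stayed negative at -0.68 with the summed RPKM of all retinas made equal and at -0.33 after quantile normalisation. Equal sums also moved the median of all genes from -0.11 to -0.28, and the share of higher among the calls over all genes from 44.54% to 27.43%, and called 19 of the 89 members lower, against 8.74% of all genes lower under the same scaling. Leaving out the first 4 h retina, which had the lowest level of its group for 71 of the 89 genes, gave a median of -0.19. Within experiment 1 the median was -0.69, against -0.05 over all genes, and within experiment 2 it was -0.23, against -0.26 over all genes. The 4 h change did not pass the test of a difference between the experiments for any member, by limma with the same adjustment (0 of 89, and 0 at an unadjusted p under 0.05), against 0.0988% of all genes called and 4.71% at an unadjusted p under 0.05.

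**Figure D1:**
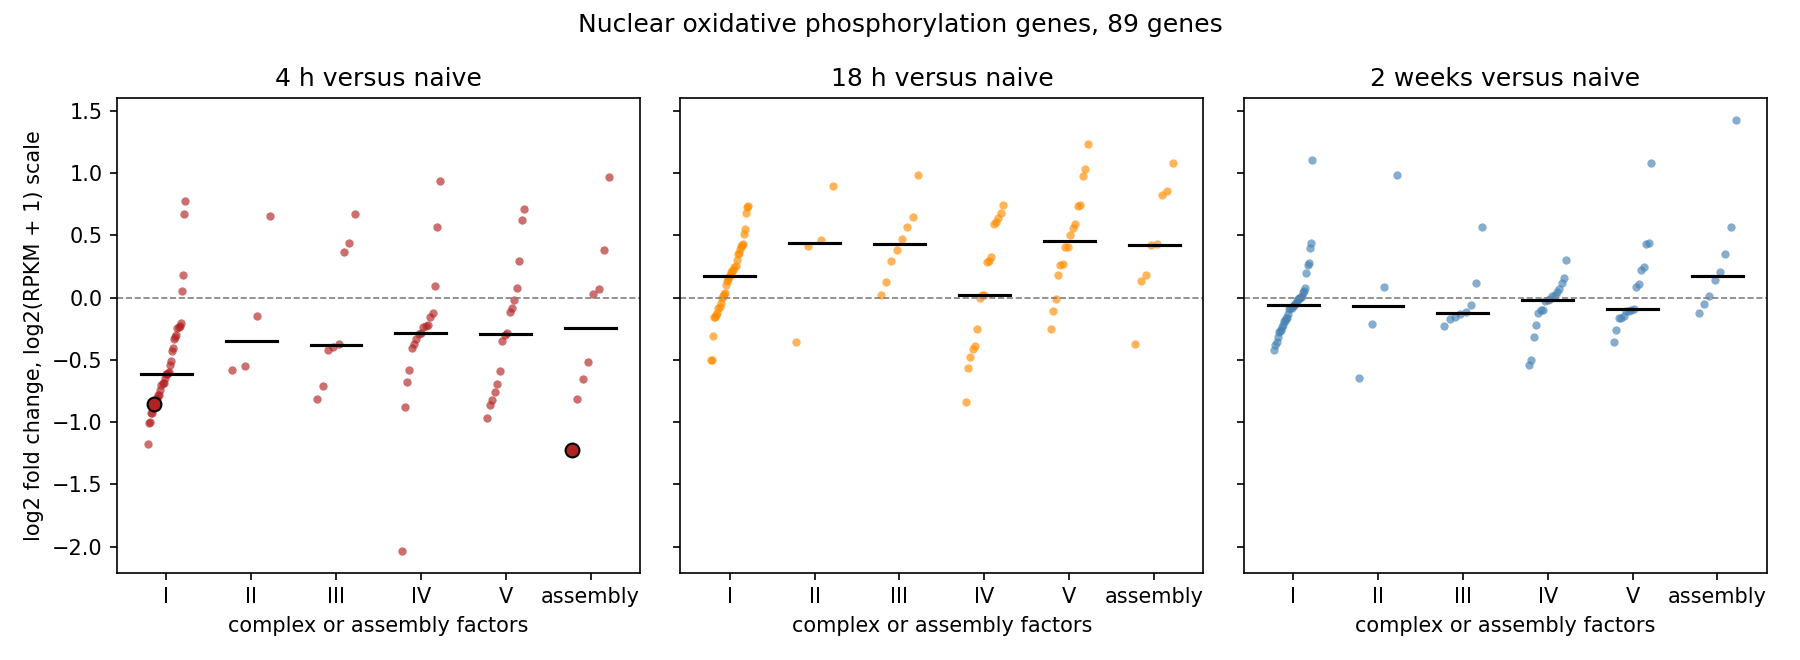
Log2 differences of the 4 h, 18 h and 2-week groups from the naïve group for each of the 89 genes past the filter, by complex; bars mark medians and ringed points the 2 genes that passed the test. The medians lie below 0 in every complex at 4 h and above 0 at 18 h on the deposited scale, and the 18 h medians of complexes I and IV turn negative with equal summed RPKM or quantile normalisation.

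At 18 h no member passed the test against naïve retinas by limma (0 of 89, and 7 or 7.87% at an unadjusted p under 0.05), against 4.85% of all genes called (2.93% higher, 1.91% lower) and 17.5% at an unadjusted p under 0.05. The 7 were Atp5e, Atp5g1, Cox5a, Cox6a1, Ndufa11, Ndufaf4 and Uqcrc2, each on the higher side. The naïve retinas are the same as in the 4 h comparison. On the deposited scale 66 of the 89 log2 differences were positive with a median of 0.27, against -0.08 over all genes, but the median was -0.06 with equal summed RPKM and -0.000153 after quantile normalisation. It was 0.09 without the fourth 18 h retina, 0.26 within experiment 1 and 0.06 within experiment 2, which had 1 retina at 18 h. With equal summed RPKM the share of higher among the calls over all genes went from 60.5% to 32.74%.

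Atp5g1 came nearest to the threshold. It is 1 of 3 genes, with Atp5g2 and Atp5g3, that encode the same mature subunit c of the proton-driven ring of complex V, and lies at chr11:96068852-96075670 on the minus strand. The naïve retinas had 18.7, 57.2 and 77.4 RPKM as lowest, median and highest. The 5 retinas at 18 h had 88.6, 115, 78.7, 200.4 and 89.9 RPKM. All 5 stood above every naïve retina, a pattern met by 2.05% of all genes and among the 89 by Atp5g1 alone, and no member lay wholly below (1.3% of all genes). The log2 difference was 1.04 (SE 0.36, limma adjusted p = 0.097).

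Other members with an unadjusted p under 0.05 at 18 h came from several complexes. Atp5e, the small epsilon subunit of complex V, had 25.3, 53.0 and 88.96 RPKM in naïve retinas and 91.6, 95.5, 77.5, 83.8 and 69.3 RPKM at 18 h (log2 difference 0.75, SE 0.31, limma adjusted p = 0.176). Cox5a, a nuclear subunit of complex IV, had 43.9, 107 and 158 RPKM in naïve retinas and 152, 180, 132, 190 and 157 RPKM at 18 h (0.75, SE 0.31, limma adjusted p = 0.188). The assembly factor Ndufaf4 had 8.09, 24.1 and 34.9 RPKM in naïve retinas and 37.6, 32.8, 36.3, 51.1 and 34.7 RPKM at 18 h (0.86, SE 0.34, limma adjusted p = 0.167). In these 3 genes every 18 h retina stood above the naïve median. Uqcrc2, a core protein of complex III, had 0.99 (SE 0.48, limma adjusted p = 0.281), and its 5 retinas had 81.5, 64.8, 79.3, 27.3 and 83.6 RPKM, so that the fourth stood apart on the low side.

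By complex the 18 h medians were 0.17 for complex I, 0.44 for II, 0.43 for III, 0.02 for IV, 0.45 for V and 0.43 for the assembly factors. With equal summed RPKM those of complex I (-0.15) and IV (-0.30) were negative, while complexes II (0.11), III (0.11) and V (0.13) and the assembly factors (0.11) stayed positive. After quantile normalisation complexes I (-0.15) and IV (-0.28) were negative as well. All 8 genes of complex III were on the positive side on the deposited scale, from 0.02 for Uqcrh to 0.99 for Uqcrc2. Ndufs7 was back at the naïve level at 18 h, with a log2 difference of 0.03 (SE 0.28, limma adjusted p = 0.978), and Ndufaf7 stood at 0.42 (SE 0.36, limma adjusted p = 0.592). Sdha had -0.35 (SE 0.39, limma adjusted p = 0.701), with 29.7, 12.3, 20.9, 21.6 and 16.8 RPKM in the 5 retinas.

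The direct comparison of 18 h with 4 h asked whether the module differed between the 2 inflamed stages. It uses the same 4 h and 18 h retinas as above, so its calls are not independent of those results. Ndufaf7, Atp5g1 and Cox6a2 rose, none fell, and 86 of 89 did not pass the test, against 5.46% of all genes (2.94% higher, 2.52% lower). At an unadjusted p under 0.05 there were 28 members (31.5%), 27 of them on the higher side, against 16.3% of all genes. This count varied with the setting. It was 28 with equal summed RPKM, 18 with the GC and length trend removed and 8 after quantile normalisation. Without the first naïve and first 4 h retinas it was 20. The matching shares over all genes were not computed for these settings. The median over the 89 was 0.66, against 0.02 over all genes, and stayed positive at 0.62 with equal summed RPKM and 0.30 after quantile normalisation.

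For Ndufaf7 the 5 retinas at 18 h had 52.1, 33.3, 27.4, 58.3 and 42.2 RPKM, all above the highest of the 4 h retinas at 26.5. The log2 difference was 1.65 (SE 0.39, limma adjusted p = 0.0090), and the call was kept in all 28 such fits, with differences of 1.36 to 1.86 and an adjusted p of up to 0.035. For Atp5g1 the 4 h retinas had 14.8, 49.8 and 70.2 RPKM as lowest, median and highest, below all 5 at 18 h. The log2 difference was 1.34 (SE 0.40, limma adjusted p = 0.040), kept in 21 of 28 fits and lost without 4 h retina 1, 5 or 6 or 18 h retina 1, 2, 4 or 5 (differences of 1.05 to 1.48, adjusted p of up to 0.136).

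Cox6a2, at chr7:128205435-128206387 on the minus strand, was low and variable. It had 2.07, 10.0 and 83.0 RPKM as lowest, median and highest in naïve retinas, 0, 3.63 and 7.74 RPKM at 4 h, and 18.2, 23.5, 14.7, 34.1 and 25.6 RPKM in the 5 retinas at 18 h. All 18 h retinas lay above all 4 h retinas but inside the naïve range. The log2 difference from 4 h was 2.64 (SE 0.81, limma adjusted p = 0.049), and the call was kept in only 8 of 28 fits, being lost without naïve retina 1, 2, 6, 7, 9 or 10, without 4 h retina 1, 2, 3, 5 or 6, without any of the 5 at 18 h, or without 2-week retina 3, 5, 6 or 7 (differences of 2.26 to 2.89, adjusted p of up to 0.130). Within experiment 1 the naïve mean was 35.7 ± 32.2 RPKM (SD, n = 6) and within experiment 2 it was 8.75 ± 7.03 (n = 4), with overlapping retinas, and this difference was not tested.

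The calls of all 3 were lost within each experiment, where the adjusted p by limma was 0.136 and 0.095 for Ndufaf7, 0.309 and 0.271 for Atp5g1 and 0.249 and 0.139 for Cox6a2, although experiment 2 had 1 retina at 18 h, whose spread was taken from the other groups. The log2 differences kept their sign, at 1.96 and 1.37, 1.53 and 0.96, and 3.05 and 2.38. The median over the 89 genes was 0.94 in experiment 1 and 0.32 in experiment 2.

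In all, 6 of the 89 separated the 18 h from the 4 h retinas with no overlap, all on the higher side, while 4.84% of all genes lay wholly above and 2.79% wholly below. They were Atp5g1, Cox6a2, Ndufaf7, Ndufs7, the complex I accessory subunit Ndufa2 and the complex IV subunit Cox6b1. Ndufs7 had 32.6 to 86.2 RPKM at 4 h and 132, 126, 113, 119 and 103 RPKM at 18 h (log2 difference 0.88, limma adjusted p = 0.0999). Cox6b1 had 156 to 407 RPKM at 4 h and 472, 555, 438, 888 and 424 RPKM at 18 h (0.92, limma adjusted p = 0.143). Ndufa2 had 107 to 345 RPKM at 4 h and 377, 421, 347, 940 and 356 RPKM at 18 h (0.94, limma adjusted p = 0.225). In the last 2 genes the fourth 18 h retina was far the highest. Atp5e and the complex I subunit Ndufa9 lay just outside the threshold, with 1.09 (SE 0.34, limma adjusted p = 0.0515) and 0.92 (SE 0.29, limma adjusted p = 0.057).

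The positive side was shared by all complexes. The median of 18 h over 4 h was 0.76 for complex I, 0.43 for II, 0.67 for III, 0.52 for IV, 0.69 for V and 0.59 for the assembly factors, and each stayed positive with equal summed RPKM and after quantile normalisation. All 16 genes of complex V, all 8 assembly factors and 33 of 36 genes of complex I were on the positive side. Complex IV held the main exception, since Cox8b had -1.77 (SE 0.69, limma adjusted p = 0.153) and 5 of its 17 genes were negative. Of these, Cox8b, Cox6b2, Cox4i2 and Cox7a1 were low, with means over all 28 retinas of 2.57, 2.79, 7.46 and 8.09 RPKM. The other, Cox7a2l, had a mean of 123 RPKM. Cox8b reached 1 RPKM in only 13 retinas.

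**Figure D2:**
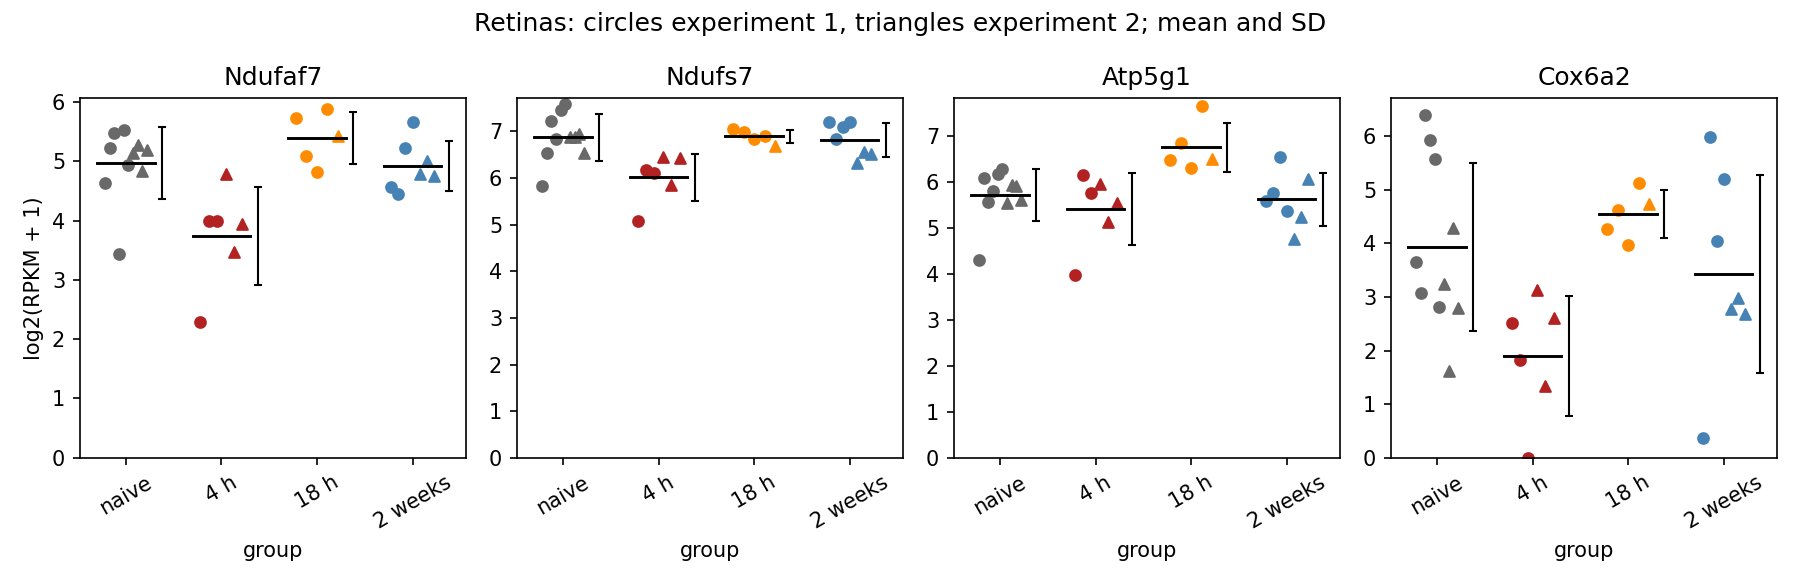
Log2(RPKM + 1) in each of the 28 retinas for the 4 genes that passed the test in at least 1 comparison, by group, with experiment 1 as circles, experiment 2 as triangles and bars for the mean and SD. The 18 h retinas of Atp5g1 lie above all naïve and all 4 h retinas, those of Ndufaf7, Ndufs7 and Cox6a2 lie above all 4 h retinas, and Cox6a2 spans 2.07 to 83.0 RPKM in naïve retinas.

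At 2 weeks no member passed the test against naïve retinas by limma (0 of 89, and 2 at an unadjusted p under 0.05), against 0.0076% of all genes called and 2.87% at an unadjusted p under 0.05. The median was -0.05, against 0.07 over all genes, with 35 positive and 54 negative. The 2 were the NADH-binding core subunit Ndufv1 at 1.11 (SE 0.52) and the assembly factor Ndufaf6 at 1.43 (SE 0.70), each with a limma adjusted p of 1. Ndufaf7 had 20.9, 26.6 and 49.9 RPKM as lowest, median and highest at 2 weeks, Ndufs7 had 78.9, 113 and 146, and Atp5g1 had 26.4, 47.6 and 93.0. Each of the 3 therefore lay mostly within its naïve range, with log2 differences of -0.05, -0.05 and -0.10. Within experiment 1 the median over the 89 was 0.13 and within experiment 2 it was -0.35, so the sign differed between the experiments.

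From 18 h to 2 weeks no member passed the test by limma either (0 of 89, and 4 at an unadjusted p under 0.05), against 2.67% of all genes called (1.12% higher, 1.55% lower) and 13.9% at an unadjusted p under 0.05. The 4 were Atp5g1 (-1.14, SE 0.38, limma adjusted p = 0.118), Cox5a (-0.85, SE 0.33), Ndufab1, the mitochondrial acyl carrier protein that is also a complex I subunit (-0.90, SE 0.39), and Ndufaf4. Cox6a1, the ubiquitous form of subunit 6a, had 591, 667, 468, 472 and 511 RPKM at 18 h and 252, 384 and 455 RPKM as lowest, median and highest at 2 weeks. It was the only one of the 89 whose 2-week retinas all lay below the 18 h ones, a pattern met by 2.07% of all genes (2.09% lay wholly above), although its log2 difference was -0.57 (SE 0.31, limma adjusted p = 0.411). The median over the 89 was -0.28, against 0.16 over all genes, but 0.03 with equal summed RPKM and -0.0059 after quantile normalisation. Equal sums moved the share of higher among the calls over all genes from 41.88% to 65.99%.

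Followed through both inflamed stages on the deposited scale, 50 of the 89 genes had a negative log2 difference from naïve at 4 h and a positive one at 18 h, 20 were negative at both, 16 were positive at both and 3, Cox4i2, Cox6b2 and Cox8b, were positive at 4 h and negative at 18 h. These signs come from comparisons that share the naïve retinas, and nearly all single genes behind them did not pass the test. The 16 that were positive at both included Atp5a1 and Atp5b of the ATP synthase head, Ndufs1 and Ndufv1 of the NADH arm, and Uqcrc1, Uqcrc2 and Uqcrfs1 of complex III. The 20 that were negative at both included the small accessory subunits Ndufa1, Ndufa5, Ndufa6, Ndufa7, Ndufb3, Ndufb4 and Ndufc1.

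The members also varied differently among the single retinas. Over the 28 retinas, the correlation of each gene with the median of the other 88 members (log2 scale, a description across retinas that share library and depth) had a median of 0.78 and was negative for 16 genes, with the lowest values for Atp5a1 at -0.63, Uqcrc1 at -0.51, Ndufv1 at -0.47 and Atp5b at -0.46. Core subunits of complex I stood on both sides, at 0.81 for Ndufs7, 0.80 for Ndufs3 and 0.73 for Ndufv2 against -0.38 for Ndufs1, and the negative genes included the isoform Cox4i2 (-0.37) and the accessory subunit Ndufa10 (-0.20). The correlation with the number of genes detected in a retina had a median of -0.43 and ran from -0.90 to 0.90, with 60 of 89 genes below 0. In the fourth 18 h retina, which had 6969 genes detected and the highest level of its group for 61 of the 89 genes, Uqcrc1 had 10.6 RPKM against 44.2 to 91.2 in the other 4, and Atp5b had 55.2 against 124 to 259. Transcript length, taken as the mean over the annotated transcripts of a gene, moved with this split. Genes at or below the median length of 771 bases had a median correlation with genes detected of -0.59 and a median 4 h difference of -0.61, and longer ones had -0.02 and -0.29. At 18 h the shorter genes had a median of 0.14 and the longer ones of 0.41. Among the members the Spearman correlation of length with the log2 difference was 0.30 at 4 h and 0.35 at 18 h. Over all genes with a known length it had the opposite sign, at -0.05 and -0.28. The part of library breadth in these differences was not tested beyond a fit with the number of genes detected as a covariate, chosen after seeing the data, which called 21 members lower at 4 h (9.53% of all genes lower in the same fit), 5 higher and 1 lower at 18 h (7.89% and 4.98%) and 11 higher at 18 h over 4 h (7.24%). The number of genes detected comes from the same libraries as the levels.

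Single members of complexes II and III showed how wide the spread between retinas could be. Sdhb, the iron-sulphur subunit of complex II, had 68.7, 170 and 345 RPKM as lowest, median and highest before LPS and 54.5, 132 and 186 RPKM at 4 h, and its 5 retinas at 18 h had 182, 228, 171, 341 and 203 RPKM. Its lowest 18 h retina lay just above the naïve median. The membrane anchor Sdhd had 43.2, 136 and 169 RPKM before LPS and 68.0, 106 and 141 RPKM at 4 h, then 210, 242, 184, 59.0 and 156 RPKM at 18 h. Here the fourth 18 h retina was the lowest, although it was the highest for Sdhb, and the first 2-week retina had 0.0821 RPKM against 108 or more in the other 6. Sdhc, the second anchor, was listed at 0 in the fourth naïve retina and ran up to 46.3 RPKM in the seventh. Such near-absent values in single retinas recurred in the core subunits of complexes I and III, with 0.0972 RPKM for Ndufs1 and 0.494 RPKM for Uqcrfs1 as the lowest naïve levels, while Uqcrfs1 at 4 h stayed between 57.2 and 111 RPKM.

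The head of complex V followed another order. Atp5b, the catalytic beta subunit, had 15.5, 93.8 and 267 RPKM as lowest, median and highest before LPS, 43.8, 153 and 244 RPKM at 4 h and 259, 124, 195, 55.2 and 175 RPKM at 18 h (log2 difference from naïve 0.98, SE 0.61, limma adjusted p = 0.436). Atp5a1, the alpha subunit, had 37.7, 60.1 and 135 RPKM before LPS, 45.8, 80.0 and 133 RPKM at 4 h and 134, 76.1, 98.7, 75.8 and 62.5 RPKM at 18 h. For both subunits the medians after LPS lay above the naïve median at 4 h and 18 h, and the ranges overlapped widely. Atp5d, the delta subunit of the stalk, had the highest log2 difference of complex V at 18 h, at 1.24 (SE 0.89, limma adjusted p = 0.515).

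Summed over all 92 genes, the module took 1.65%, 3.37% and 5.34% of the summed RPKM as lowest, median and highest in naïve retinas and 1.19%, 2.22% and 2.55% at 4 h. The 5 retinas at 18 h had 2.84%, 3.12%, 2.51%, 5.42% and 2.77%, and those at 2 weeks had 1.98%, 3.68% and 5.61% as lowest, median and highest. The groups overlapped. The naïve spread was wide in experiment 1, where the mean was 4.09% ± 1.45 (SD, n = 6), and narrow in experiment 2, at 3.15% ± 0.29 (n = 4). At 4 h the means were 1.92% ± 0.64 (n = 3) and 2.16% ± 0.44 (n = 3). Naïve retinas 3, 4, 5 and 6, with shares of 4.47% to 5.34%, had only 6552 to 8562 genes detected. Naïve retinas 1 and 2 had 11825 and 10358, with shares of 1.65% and 3.06%. The naïve retinas of experiment 2 had 11129 to 11429 genes detected and the 4 h retinas 8254 to 10441. The part of the number of genes detected in these shares was not tested. The first naïve retina had the lowest level of its group for 62 of the 89 genes, and the fifth 2-week retina for 59.

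**Figure D3:**
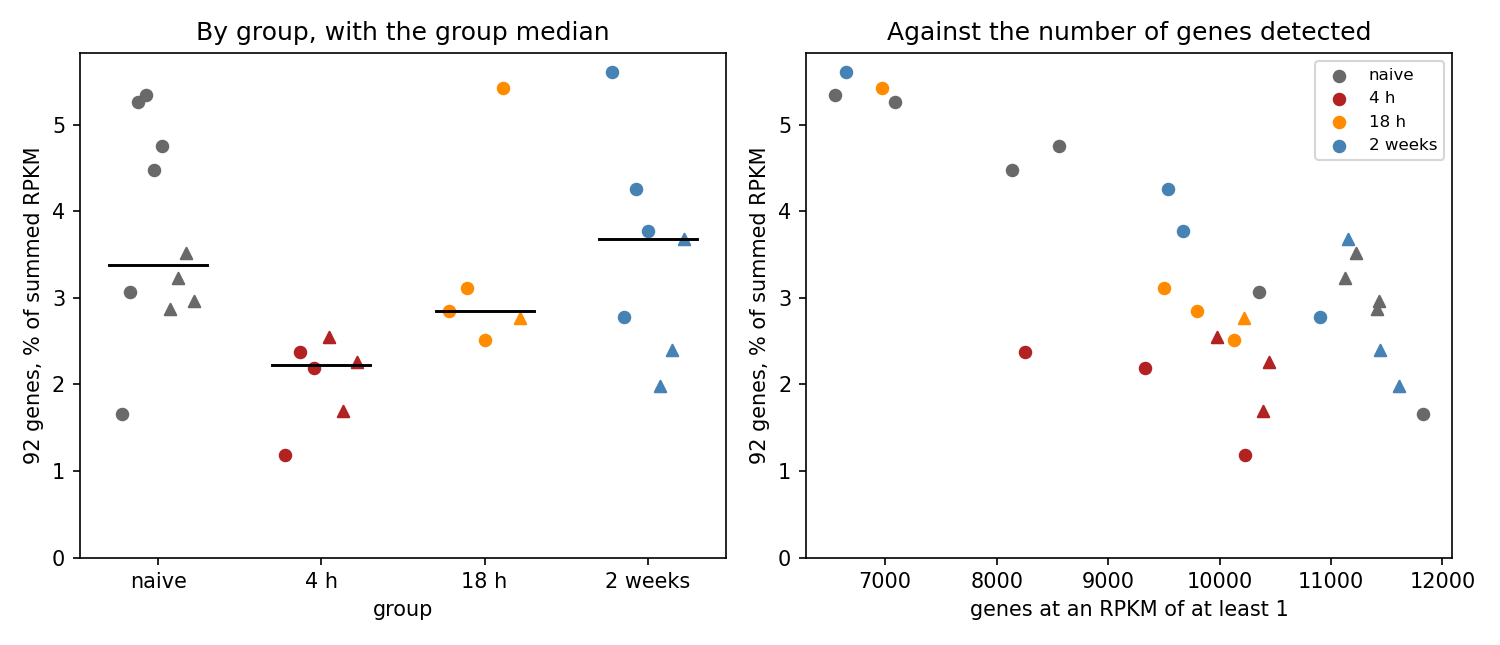
Share of the summed RPKM taken by the 92 nuclear OXPHOS genes in each retina, in percent, by group (left, with the group median) and against the number of genes with at least 1 RPKM (right), with experiment 1 as circles and experiment 2 as triangles. The 6 retinas at 4 h lie between 1.19% and 2.55%, the naïve retinas spread from 1.65% to 5.34%, and a single 18 h retina stands at 5.42%.

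Isoform choice within subunits varied between retinas. Atp5g1 made up 34.6% ± 9.2 (SD, n = 10) of the summed subunit c RPKM in naïve retinas, 30.2% ± 11.02 (n = 6) at 4 h, 41.2% ± 9.1 (n = 5) at 18 h and 29.1% ± 8.3 (n = 7) at 2 weeks, so that the means differed by about the spread between retinas. The sum of the 3 genes averaged 164 RPKM (SD 51.0) without LPS, 157 RPKM (SD 61.4) in the 4 h group, 270.5 RPKM (SD 57.3) in the 18 h group and 175 RPKM (SD 40.4) in the last group. Atp5g2 and Atp5g3 had log2 differences at 18 h of 0.74 (SE 0.51) and 0.60 (SE 0.32), with limma adjusted p of 0.495 and 0.346. Cox6a2 made up 7.08% ± 8.06 (SD, n = 10) of the summed Cox6a RPKM before LPS and 1.16% ± 1.10 (n = 6), 4.19% ± 1.60 (n = 5) and 4.21% ± 4.37 (n = 7) in the 3 groups after it, in the order of time. Reads of such paralogues, and of pseudogenes such as Ndufab1-ps (3.77 to 17.5 RPKM at 18 h), could have been split between copies when reads were assigned.

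Other mitochondrial and housekeeping lists were set beside the module by their counts and medians, over the same all-gene backgrounds. The 13 subunits encoded by mitochondrial DNA had medians of -0.16 at 4 h and -0.46 at 18 h (-0.44 and -0.79 with equal summed RPKM), with none called by limma (0 at an unadjusted p under 0.05 at either time, and 0 called under either other scaling), and all 13 were negative at 18 h. Their median at 4 h was -0.55 within experiment 1 and 0.03 within experiment 2. Of 16 genes of the tricarboxylic acid cycle, which supplies electrons to complexes I and II, none was called at either time, with 1 at an unadjusted p under 0.05 at each. None of 11 regulators of mitochondrial biogenesis was called either, with 0 at 4 h and 1 at 18 h at an unadjusted p under 0.05. Of 82 mitochondrial ribosomal protein genes 4 were called lower at 4 h (median -0.21) and 2 higher at 18 h (0.49), and of 38 further assembly factors 3 were called lower at 4 h (-0.22) and none at 18 h (0.33, with 4 at an unadjusted p under 0.05). Over all genes 4.82% were called lower at 4 h and 2.93% higher at 18 h. The medians given here kept their sign with equal summed RPKM. Those of the tricarboxylic acid cycle genes changed sign, from 0.07 to -0.17 at 4 h and from 0.16 to -0.14 at 18 h. With equal sums 1 of these 16 genes was called lower at 4 h, against 8.74% of all genes.

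The larger shift at 18 h lay outside the module. Of 84 cytosolic ribosomal protein genes 42 were called higher (median 1.10), and of 38 proteasome genes 10 were (median 1.10), against 0 of 89 nuclear OXPHOS genes (0.27) and a background of 2.93%. With equal summed RPKM these were 24 of 84 (0.79), 4 of 38 (0.77) and 0 of 89 (-0.06). The difference between the lists was not tested. Of 6 tested genes for OXPHOS proteins that the symbol rule does not take, 1 was called higher and 1 lower at 4 h. The shares over all genes were 3.87% and 4.82%. AA467197, a paralogue of Ndufa4, rose at 4 h (log2 difference 1.74, SE 0.37, limma adjusted p = 0.0017), from at most 1.73 RPKM in naïve retinas to between 0.793 and 7.90 RPKM. It was listed at 0 in all 6 naïve retinas of experiment 1. Atpif1, the inhibitory factor of the ATP synthase, fell at 4 h (-1.16, SE 0.38, limma adjusted p = 0.049), from between 81.4 and 530.3 RPKM in naïve retinas to between 57.1 and 202 RPKM. The call of Atpif1 lay just inside the threshold and was not refitted with retinas left out.

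**Figure D4:**
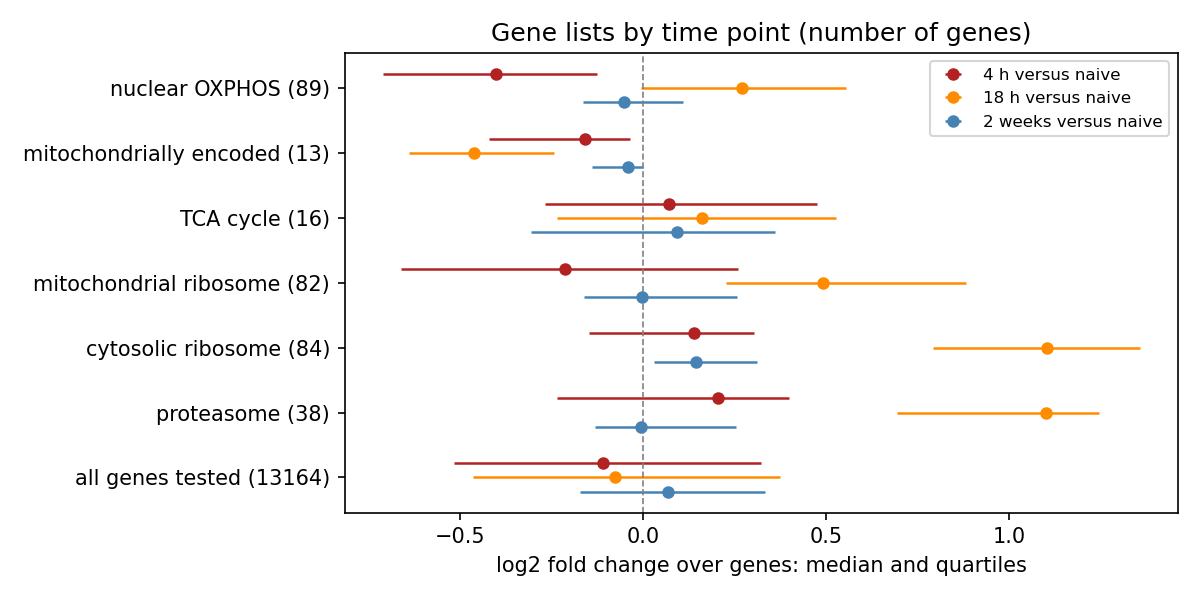
Median log2 difference of the 4 h, 18 h and 2-week groups from the naïve group for the nuclear OXPHOS genes and other lists (points, with lines for the quartiles over genes), on the deposited scale. The nuclear OXPHOS genes go from -0.40 at 4 h to 0.27 at 18 h (-0.06 with equal summed RPKM), while cytosolic ribosomal and proteasome genes reach 1.10 at 18 h (0.79 and 0.77 with equal summed RPKM).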

How the data were processed

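Messenger RNA of sorted microglia from 28 retinas was amplified (SMART-Seq v4) and sequenced. The authors converted the sequencer output to reads (bcl2fastq 2.20) and trimmed the reads in Partek Flow. They aligned them with STAR 2.5.3a to mm10 and assigned them to Ensembl transcripts with the Partek expectation-maximisation tool. Gene-level RPKM was deposited, and no raw counts were used here. Expectation-maximisation divides reads among paralogues and pseudogenes, and RPKM depends on what else a library holds. Depth is given as the number of alignments deposited with the RPKM values, 7510000 to 19700000. A further 2 deposited tables hold the authors' own comparisons at 4 h and 18 h (ANOVA p-values, ratios and fold changes) and were not used, and 4 lines sharing a symbol were kept apart.

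RPKM values were filtered (at least 1 in at least 5 of 28 retinas) and tested as log2(RPKM + 1) with limma 3.58.1 (R 4.3.3), all retinas in 1 fit, empirical Bayes with trend and Benjamini-Hochberg adjustment over 13164 genes, at an adjusted p of 0.05. Group sums, shares and figures were made in Python 3.11.15 (numpy 2.4.6, scipy 1.17.1, matplotlib 3.10.9), and the scripts were tested on simulated data. Locations are GENCODE M21 (GRCm38) and promoters RefSeq GRCm38.p6.

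The members, gene lists and motifs were chosen with earlier results of these data known. Genes named were a list of core subunits, isoform pairs and AA467197, the highest and lowest log2 difference of each complex at 4 h and 18 h, and the 3 smallest p in each comparison. Other names (such as Ndufb3, Ndufa9, Ndufa2 and Cox6b1) were added after their values were seen. Alternatives were other pseudocounts, filters, scalings, covariates, tests and left-out retinas. Replicate numbers were not treated as pairs in the main test.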

Additional observations from a re-analysis of the deposited data

Results flagged for a closer look

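Within a group, 30 of 204 sets of values over 5 to 10 retinas had a highest or lowest value set apart from the rest by more than the 95% limit of Dixon's test, which chance passes in about 1 in 20 sets. These sets share retinas, so they are not independent, and no cause was tested. The fourth 18 h retina gave 15 of the 30. It was high for the summed RPKM of the 92 genes (27641), their share (5.42%), Ndufa4 (795 RPKM), Cox5b (279), Cox7a2 (674), Ndufc1 (819.7), Uqcr11 (1083), Atp5j (486), Ndufa7 (512), Ndufaf2 (20.2) and Ndufaf4 (51.1), and low for Uqcrfs1 (30.7), Cox8a (210.4), Ndufa10 (17.9) and the number of genes detected (6969).

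At 2 weeks the first retina was low for Sdhd, the membrane anchor of complex II (0.0821 RPKM), and for genes detected (6644), and high for Ndufc1 (727). Ndufa4l2 was high in the fourth 2-week retina (2.00 RPKM), and Cox8b in the seventh (7.49). In the naïve group the first retina was low for the summed RPKM of the mitochondrially encoded subunits (1649) and high for Sdha (59.6), the third was high for Cox8b (23.8) and Ndufaf2 (34.6), the fifth for Sdhb (345) and the ninth for AA467197 (1.73). At 4 h Ndufaf1 was high in the third retina (35.0), Ndufaf2 in the second (16.8) and Ndufa4l2 in the sixth (0.308). At 18 h Ndufa4l2 was high in the third (0.378).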

How the results depend on the processing

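The main counts of nuclear OXPHOS genes called were 2 at 4 h, 0 at 18 h, 3 for 18 h over 4 h and 0 for 2 weeks against naïve, 2 weeks against 18 h and the test between experiments. At 4 h the count was 1 with a required fold change of 2, 0 with only the 2 groups compared, 0 in experiment 1 alone, 19 with equal summed RPKM (where 8.74% of all genes were called lower, against 4.82%) and 4 with the GC and length trend removed. At 18 h it was 1 with the GC and length trend removed (Ndufaf4) and 3 by ANOVA on untransformed RPKM (Atp5e, Atp5g1, Cox5a), which also gave 5 for 18 h over 4 h and 2 for 2 weeks against 18 h. For 18 h over 4 h it was 5 with a filter at an RPKM of 5 or without retinas under 8000 genes, 1 after quantile normalisation, and 0 within experiment 1 or experiment 2. Of the alternatives chosen after seeing the data, centring on the members gave 0 at 4 h and 1 for 18 h over 4 h (Cox8b, lower), the number of genes detected as a covariate gave 21 at 4 h, 6 at 18 h, 11 for 18 h over 4 h and 1 for 2 weeks against 18 h (16.1%, 12.9%, 10.7% and 7.49% of all genes), and leaving out the first naïve and first 4 h retinas gave 1 for each of 4 h, 18 h over 4 h and 2 weeks against 18 h. Ndufaf1 at 4 h changed from 0.07 to -1.05 (limma adjusted p = 0.0128) in experiment 2 alone, and the cause was not tested. Leaving out 1 retina at a time gave 0 (without 4 h retina 1) to 6 (without naïve retina 1) calls at 4 h, 1 to 5 for 18 h over 4 h, and 0 in each other comparison. Of 13579 other values recomputed, 13432 kept their side of the threshold (single genes) or moved by less than the spread between naïve retinas (medians). A change of sign in a median, or in a gene called in neither fit, was counted as kept. The 18 h median over the 89, for example, went from 0.27 to -0.06 with equal summed RPKM.

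With the replicate number as a block, 1 gene was called at 4 h (Cox6a2, -2.64, limma adjusted p = 0.0235) and 1 for 18 h over 4 h (Ndufaf7, 1.67, limma adjusted p = 0.039). The mean correlation of deviations was 0.048 over 34 same-numbered pairs of retinas from different groups, 15 of them over 0.1. Over 253 other pairs it was 0.010, with 93 of them over 0.1. A low mean cannot exclude pairing, and the numbers were not treated as pairs in the main test.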

Other observations

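Mean isoform shares lay apart between the experiments within the naïve group, with overlapping retinas. Cox6a2 took 10.5% ± 8.98 (SD, n = 6) of the summed Cox6a RPKM in naïve retinas of experiment 1 and 1.95% ± 1.36 (n = 4) in those of experiment 2, and Atp5g1 took 40.5% ± 6.80 and 25.9% ± 2.75 of the summed subunit c RPKM. These shares were not tested, since they were picked after the values had been seen.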
